A study of Mus musculus with 16 samples.

Results

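The genes described here are the 10 inducible genes of the immunoproteasome and of antigen presentation by MHC class I: Psmb8, Psmb9, Psmb10, Psme1, Psme2, Tap1, Tap2, Tapbp, B2m and Nlrc5. They are listed by gene symbol, with no threshold on a measured value, though earlier results of these data were known when the list was made. All 10 were found among the 16973 genes of the deposited count table. The series holds bulk RNA-seq of 16 livers from male C57BL/6 mice, with 4 livers per group. The groups were RPN11 flox/flox, RPN11 hepatocyte-specific knockout, METTL3 flox/flox and METTL3 hepatocyte-specific knockout, and each knockout was compared with the flox/flox mice of its own line. RPN11, encoded by Psmd14, is the deubiquitylating enzyme in the lid of the proteasome's regulatory particle, and METTL3 is the methyltransferase that deposits N6-methyladenosine on mRNA. The title of the study places it in nonalcoholic fatty liver disease. The sources used here do not name the Cre driver or give the age and diet of the mice.

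The proteasome degrades ubiquitylated proteins to peptides. Cells exposed to interferon gamma exchange its constitutive catalytic subunits for inducible ones and so form the immunoproteasome, whose peptides are carried by a transporter into the endoplasmic reticulum and loaded onto MHC class I heavy chains. Each heavy chain pairs with beta-2-microglobulin before it travels to the cell surface, where CD8 T cells read the peptide. Hepatocytes express little class I compared with immune cells, and liver macrophages and endothelial cells present antigen alongside them.

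Total counts per liver ran from 15980959 to 29029592, and the members held from 80 counts (Psmb9) to 73907 counts (B2m) in a liver. Levels are given as CPM (counts scaled to library size) over library sizes scaled by TMM, which assumes that most genes do not change, and each line's fold changes are from edgeR's quasi-likelihood test of 4 against 4 livers. Adjusted p-values are Benjamini-Hochberg values over all tested genes, and a gene is called below 0.05. The labels do not say that the livers came from separate litters or cohorts, so p-values measure the spread between these samples. Mettl3 was lower in METTL3 knockout livers, at 6.43 ± 0.169 CPM against 15.8 ± 1.999 CPM (SD, n = 4; log2 fold change -1.29, SE 0.17, adjusted p = 0.000647). Psmd14 did not differ between the RPN11 groups beyond their spread, at 77.9 ± 12.3 CPM in the livers labelled knockout against 78.2 ± 3.62 CPM (adjusted p = 0.976), so the labelled knockout livers are named by their label throughout. A count over the whole gene also takes reads from exons outside a deleted part. The labelled RPN11 knockout livers 1 and 3 were the closest pair of libraries, with a chi-square per gene of 8.37 where sampling noise gives 1 and the next pair had 30.2. Knockout liver 4 of each line also held transcripts of neurons and glia, with summed marker levels of 966 CPM (labelled RPN11 knockout) and 559 CPM (METTL3 knockout) against 138 to 433 CPM in the other livers. The same livers had the highest dendritic cell marker sums, at 91.8 and 61.0 CPM against 14.9 to 27.5 CPM elsewhere.

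Summed markers of macrophages and hepatocytes were compared between the groups. The summed level of 14 macrophage markers ranged from 289 to 481 CPM in RPN11 flox/flox, 406 to 1058 CPM in labelled RPN11 knockout, 231 to 310 CPM in METTL3 flox/flox and 590 to 1279 CPM in METTL3 knockout livers. The 9 hepatocyte markers summed to 149400 to 174700, 104000 to 142200, 147500 to 174500 and 68140 to 153200 CPM in the same order. In the RPN11 line the macrophage sums overlapped. Of the hepatocyte markers 4 of 9 had a log2 fold change above 0, with a median of -0.08. Of the 9, 1 (Tat) was called higher and none lower, where 1.99% and 2.82% of all tested genes were. The lower sum therefore does not describe them all. In bulk liver, fewer cells of a type and less RNA per cell cannot be told apart. T and NK cell markers were near the bottom of the measured range, at 1.51 to 9.02 CPM summed over 13 genes, and interferon gamma itself (Ifng) had no counts in either flox/flox group. The part of these cells in the results below was not tested.

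The members lie on chromosomes 2, 8, 14 and 17 (GENCODE M21, GRCm38). Psmb9 (chr17:34181987-34187764, minus strand), Tap1 (chr17:34187553-34197225, plus), Psmb8 (chr17:34197721-34201454, plus) and Tap2 (chr17:34203527-34216321, plus) follow one another in the MHC, with Tapbp on the same chromosome (chr17:33915899-33929292, plus). Psme1 (chr14:55578123-55581529, plus) and Psme2 (chr14:55587441-55591113, minus) are neighbours, while Psmb10 (chr8:105935735-105938444, minus), Nlrc5 (chr8:94434356-94527272, plus) and B2m (chr2:122147686-122153083, plus) lie elsewhere. Psmb9 and Tap1 share 212 exonic bases on opposite strands, which is 5.8% of Psmb9 and 3.9% of Tap1. Tapbp shares 904 exonic bases (24.9%) with the antisense gene Gm19412. No source used here states whether the libraries kept strand, so reads in these stretches cannot be told apart.

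The start windows of B2m, Psmb8 and Tap1 are printed 5′ to 3′ from RefSeq (GRCm38.p6), from 250 bases before to 50 bases after the start. Of these genes, B2m was called in the METTL3 line and Psmb8 in the RPN11 line. The start of Tap1 lies 226 bases from that of Psmb9 on the opposite strand. Capitals mark matches to 4 motifs searched on both strands, and 8 of the 10 genes had a window. The motifs were the core of the interferon-stimulated response element (GAAA, NN, GAAA read without gaps, or its complement TTTC, NN, TTTC), the interferon gamma activated site (TTCNNNGAA), an NF-kappaB site (GGG, NN, TTTCC or its complement GGAAA, NN, CCC) and the CCAAT box (CCAAT or ATTGG), where N is any base. No match overlapped another in the printed windows. The windows of Psmb8, Psmb9, Psme1 and Tapbp lie wholly within the GENCODE spans given above, so their RefSeq starts are not the ends of those spans.
B2m, chr2:122147437-122147736, plus strand: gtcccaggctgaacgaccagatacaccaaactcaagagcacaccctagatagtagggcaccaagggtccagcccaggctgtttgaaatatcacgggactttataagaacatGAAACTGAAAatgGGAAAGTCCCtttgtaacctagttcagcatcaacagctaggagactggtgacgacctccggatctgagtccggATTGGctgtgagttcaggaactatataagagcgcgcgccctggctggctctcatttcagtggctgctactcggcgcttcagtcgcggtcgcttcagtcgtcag
Psmb8, chr17:34197945-34198244, plus strand: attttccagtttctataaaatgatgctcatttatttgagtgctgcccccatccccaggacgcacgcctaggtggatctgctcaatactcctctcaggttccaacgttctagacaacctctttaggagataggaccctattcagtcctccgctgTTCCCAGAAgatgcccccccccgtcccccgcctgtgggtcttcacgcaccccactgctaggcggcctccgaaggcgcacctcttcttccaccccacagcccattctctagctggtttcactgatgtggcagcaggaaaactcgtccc
Tap1, chr17:34187306-34187605, plus strand: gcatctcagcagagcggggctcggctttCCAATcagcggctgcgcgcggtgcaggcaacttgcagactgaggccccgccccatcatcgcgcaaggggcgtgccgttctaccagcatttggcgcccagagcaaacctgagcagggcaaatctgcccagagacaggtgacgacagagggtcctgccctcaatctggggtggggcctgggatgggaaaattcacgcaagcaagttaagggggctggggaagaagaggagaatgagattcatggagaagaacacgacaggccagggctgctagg
The B2m window held GAAACTGAAA from base -139, GGAAAGTCCC from base -126 and ATTGG from base -53, counted from the base before the start as -1. The Psmb8 window held TTCCCAGAA from base -97. The windows of Tap1 and Psmb9 overlap by 275 bases, and their CCAAT match is the same stretch read from either strand. Of the 8 genes, 2 (B2m and Psme1) matched the interferon-stimulated core, which 3.43% of 32817 windows hold. Psmb8 alone matched the interferon gamma activated site (8.29% of windows), 1 the NF-kappaB site (1.63%) and 4 the CCAAT box (37.4%), with Tap1 and Psmb9 counted for their shared match. The windows of Psme2, whose transcript was also called, are not printed and held no match to any of the 4 motifs. Psmb10, which was not called, had none either. A match describes letters only and is not a binding site.

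Per kilobase of exon, the order of levels in RPN11 flox/flox livers ran from B2m down to Psmb9. B2m, the light chain common to all class I molecules, stood at 2098 ± 186 CPM per kb (SD, n = 4). The proteasome activator subunits Psme1 and Psme2 followed at 34.3 ± 3.84 and 24.9 ± 2.21 CPM per kb, and Tapbp, which encodes the loading chaperone tapasin, stood at 16.3 ± 2.07 CPM per kb. Psmb8 (6.24 ± 0.517) and Psmb10 (5.61 ± 1.13 CPM per kb) did not differ beyond their spread. The same held for Nlrc5 (3.598 ± 0.594), Tap2 (3.24 ± 0.486) and Tap1 (3.05 ± 0.303 CPM per kb). Psmb9 was lowest, at 1.64 ± 0.537 CPM per kb. The length used was that of all annotated exons of a gene, merged over its transcripts, such as 3660 bases for Psmb9 and 5476 for Tap1. Which transcripts the livers express was not tested, so this order depends on the annotation.

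**Figure D1:**
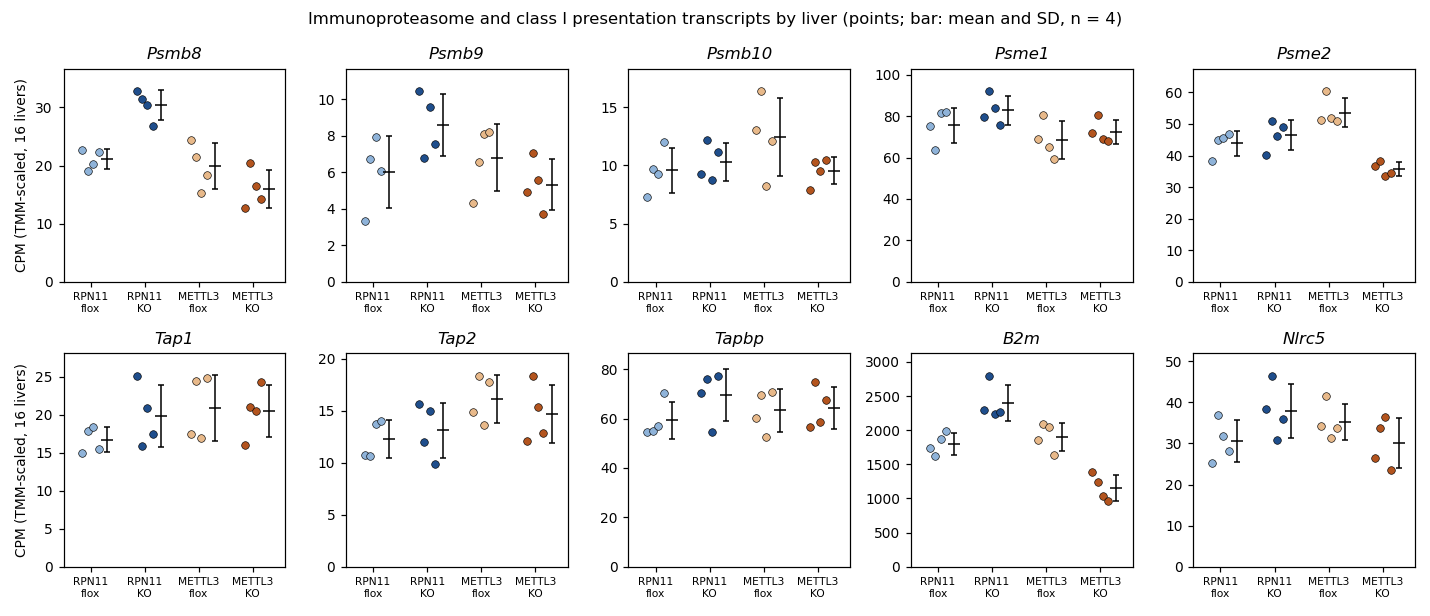
Level of each of the 10 genes in every liver, as CPM over TMM-scaled library sizes on a linear axis from 0, with the mean and SD of the 4 livers of each group (flox is flox/flox, KO is labelled knockout). Psmb8 and B2m in the livers labelled RPN11 knockout sit above their flox/flox livers, Psme2 and B2m in METTL3 knockout livers sit below theirs, and the groups of the other genes overlap within each line.

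Of the inducible catalytic subunits, Psmb8 was the member that passed the test in the RPN11 line. Psmb8 encodes beta5i, the chymotrypsin-like subunit. It measured 22.8, 19.1, 20.2 and 22.4 CPM in the 4 RPN11 flox/flox livers and 32.8, 31.5, 30.4 and 26.8 CPM in those labelled RPN11 knockout. Every labelled knockout liver was above every flox/flox liver, and the level rose 1.45-fold (log2 fold change 0.54, SE 0.11, adjusted p = 0.0235). The call was lost in 9 of 16 alternatives, with adjusted p from 0.00469 to 0.102, among them the omission of any 1 of the 4 flox/flox livers or of labelled knockout 1 or 2, while the direction held in all 16. In the METTL3 line Psmb8 measured 24.4, 21.6, 15.2 and 18.4 CPM in flox/flox and 12.7, 20.4, 16.5 and 14.2 CPM in knockout livers. Those groups overlapped, and the log2 fold change was -0.31 (SE 0.20, adjusted p = 0.243).

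Psmb9 and Psmb10, which encode the subunits beta1i and beta2i, had levels that overlapped between groups in both lines. Psmb9, the member with the fewest counts, measured 3.30, 6.73, 7.95 and 6.08 CPM in RPN11 flox/flox livers and 10.4, 6.80, 9.58 and 7.53 CPM in labelled RPN11 knockout livers. Its fitted fold was close to that of Psmb8 but its error was wider (log2 fold change 0.53, SE 0.27, adjusted p = 0.246). The METTL3 line ran from 4.29 to 8.22 CPM in flox/flox and from 3.70 to 7.03 CPM in knockout livers (-0.35, SE 0.29, adjusted p = 0.377). Psmb10 ranged from 7.31 to 12.0 CPM in RPN11 flox/flox and from 8.70 to 12.2 CPM in labelled knockout livers (0.13, SE 0.20, adjusted p = 0.725). The METTL3 values ran from 8.23 to 16.3 CPM and from 7.89 to 10.5 CPM (-0.38, SE 0.22, adjusted p = 0.221).

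Each inducible subunit takes the place of 1 constitutive subunit, so the ratio of their counts within a liver does not depend on library scaling. The ratio of Psmb8 to Psmb5 was 1.40 ± 0.186 in labelled RPN11 knockout and 1.06 ± 0.231 in flox/flox livers (SD, n = 4; exact permutation test, two-sided, p = 0.0571). The METTL3 values were 0.979 ± 0.160 against 0.865 ± 0.192 (exact permutation p = 0.343). The Psmb9 to Psmb6 ratio was 0.127 ± 0.0469 against 0.0950 ± 0.0334 in the RPN11 line and 0.133 ± 0.0522 against 0.0975 ± 0.0323 in the METTL3 line (exact permutation p = 0.314 in each). The Psmb10 to Psmb7 ratio was 0.117 ± 0.0243 against 0.0996 ± 0.0144 and 0.180 ± 0.0640 against 0.126 ± 0.0373 (exact permutation p = 0.229 in each). All 6 differences had a higher mean in the knockout, but none passed, with an adjusted p over the 6 tests of 0.343 for each. An exact test of 4 against 4 livers can give no p under 0.0286. A single ratio at that floor would not pass after adjustment over the 6 tests, so these tests cannot decide whether a single ratio differs. In METTL3 knockout livers the constitutive partners were themselves called lower, with log2 fold changes of -0.50 for Psmb5 (adjusted p = 0.0296), -0.76 for Psmb6 (adjusted p = 0.0046) and -0.78 for Psmb7 (adjusted p = 0.00796). Psmb5 lost its call in 5 of 15 alternatives and was at -0.07 over plain totals (adjusted p = 0.809), where Psmb6 and Psmb7 kept theirs.

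**Figure D2:**
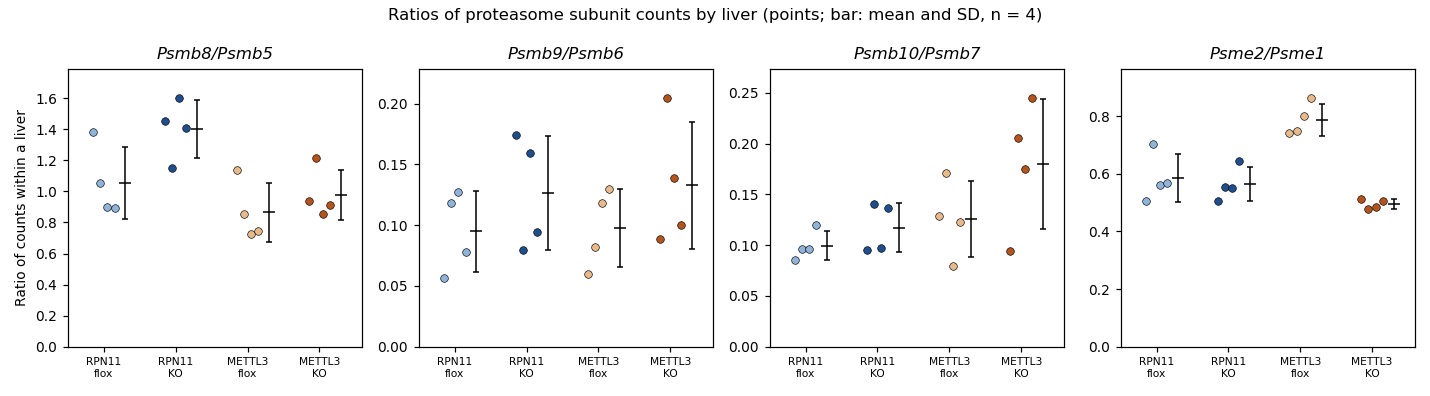
Ratios of inducible to constitutive catalytic subunit counts, and of Psme2 to Psme1 counts, in every liver on linear axes from 0, with the mean and SD of 4 livers (flox is flox/flox, KO is labelled knockout). For the catalytic subunits the knockout mean is higher in each of the 6 comparisons with overlapping groups, and for Psme2 to Psme1 the METTL3 flox/flox livers sit highest, at 0.740 to 0.862.

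Of the activator subunits, Psme2 fell in METTL3 knockout livers and Psme1 did not pass the test. Psme1 and Psme2 encode PA28 alpha and PA28 beta, which together form the ring that opens the proteasome's gate. Psme2 measured 51.2, 60.3, 52.0 and 51.0 CPM in METTL3 flox/flox livers and 36.8, 38.4, 33.4 and 34.4 CPM in knockout livers. Every knockout liver was below every flox/flox liver, and the level fell 1.498-fold (log2 fold change -0.58, SE 0.12, adjusted p = 0.00409). Psme1 measured 69.1, 80.6, 64.9 and 59.2 CPM in flox/flox and 71.9, 80.4, 69.1 and 67.8 CPM in knockout livers, which overlapped (0.08, SE 0.13, adjusted p = 0.657).

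The METTL3 calls depend on the scaling. Over plain library totals, an alternative added after the data were seen, the median log2 fold change of all tested genes in this line lay 0.42 higher, Psme2 was at -0.17 (adjusted p = 0.395) and Psme1 at 0.50 (adjusted p = 0.0254). The ratio of Psme2 to Psme1 counts, chosen after its values were seen and not tested, is free of scaling. It was 0.740, 0.748, 0.801 and 0.862 in METTL3 flox/flox livers and 0.511, 0.478, 0.483 and 0.507 in METTL3 knockout livers. RPN11 flox/flox livers had 0.507, 0.703, 0.560 and 0.570 and labelled RPN11 knockout livers 0.506, 0.554, 0.551 and 0.646. The METTL3 flox/flox livers stood above all livers of the other groups. A near copy of Psme2, Psme2b, was listed at 8.07 to 11.7 CPM as a group mean, and reads shared between them cannot be told apart.

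In the RPN11 line the activators overlapped between groups. Psme1 ranged from 63.8 to 82.2 CPM in flox/flox and from 75.9 to 91.9 CPM in labelled knockout livers (log2 fold change 0.15, SE 0.11, adjusted p = 0.42). Psme2 ranged from 38.1 to 46.8 CPM and from 40.2 to 51.0 CPM (0.11, SE 0.12, adjusted p = 0.602).

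The peptide transporter and its loading chaperone passed the test in neither line. Tap1 and Tap2 encode the paired subunits of the transporter that carries peptides into the endoplasmic reticulum. Tap1 measured 15.03, 17.9, 18.4 and 15.6 CPM in RPN11 flox/flox and 25.1, 15.9, 20.9 and 17.5 CPM in labelled RPN11 knockout livers. Labelled knockout 1 was highest and knockouts 2 and 4 lay within the flox/flox range (log2 fold change 0.26, SE 0.16, adjusted p = 0.325). Across the METTL3 line Tap1 ranged from 16.9 to 24.9 CPM in flox/flox and from 16.1 to 24.3 CPM in knockout livers (-0.03, SE 0.19, adjusted p = 0.929). Tap2 ranged from 10.6 to 14.0 CPM against 9.88 to 15.6 CPM in the RPN11 line (0.11, SE 0.18, adjusted p = 0.73) and from 13.6 to 18.3 CPM against 12.1 to 18.3 CPM in the METTL3 line (-0.14, SE 0.18, adjusted p = 0.6). Tapbp ranged from 54.8 to 70.4 CPM against 54.6 to 77.1 CPM in the RPN11 line (0.25, SE 0.14, adjusted p = 0.27). Its METTL3 values were 52.4 to 70.9 CPM against 56.8 to 75.0 CPM (0.03, SE 0.14, adjusted p = 0.898).

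B2m, by far the most abundant member, was lower in METTL3 knockout livers. It measured 1863, 2085, 2041 and 1633 CPM in METTL3 flox/flox and 1390, 1234, 1040 and 959 CPM in METTL3 knockout livers. The groups did not overlap, and the level fell 1.65-fold (log2 fold change -0.72, SE 0.19, adjusted p = 0.0147). Without METTL3 knockout 3 the adjusted p was 0.0548. Over plain library totals the log2 fold change was -0.32 (adjusted p = 0.0767) and the groups overlapped, from 1523 to 1950 CPM in flox/flox and from 1268 to 1560 CPM in knockout livers. In the same knockout livers the hepatocyte marker sum ran from 68140 to 153200 CPM and the macrophage sum from 590 to 1279 CPM, as given above.

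In the RPN11 line B2m lay the other way. It measured 1735, 1620, 1876 and 1986 CPM in flox/flox and 2299, 2790, 2244 and 2273 CPM in labelled RPN11 knockout livers. Every labelled knockout liver was above every flox/flox liver, but the log2 fold change of 0.43 (SE 0.13, 1.35-fold) missed the threshold at an adjusted p of 0.0726. It passed in 4 of 16 alternatives, including the one without labelled knockout 4, the liver with neuronal transcripts, and over the 16 the adjusted p ran from 0.0046 to 0.218.

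The classical heavy chains pair with B2m. H2-K1 measured 993, 1123, 1035 and 936 CPM in METTL3 flox/flox and 684, 681, 700 and 569 CPM in METTL3 knockout livers. The groups did not overlap (log2 fold change -0.63, SE 0.16, adjusted p = 0.0132), though over plain totals the change was -0.22 (adjusted p = 0.211). H2-D1 ranged from 246 to 289 CPM in flox/flox and from 190 to 254 CPM in knockout livers (-0.25, adjusted p = 0.214), and its sign changed over plain totals (0.19). In the RPN11 line neither passed, with H2-K1 at 0.03 (adjusted p = 0.911) and H2-D1 at 0.26 (adjusted p = 0.188). H2-D1 measured 237.7 to 305.4 CPM in flox/flox and 305.5 to 322.9 CPM in labelled knockout livers, so those groups did not overlap, by a narrow margin.

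Nlrc5, the transactivator that drives class I promoters, overlapped between groups in both lines. It measured 25.2, 37.0, 31.8 and 28.3 CPM in RPN11 flox/flox and 38.5, 46.4, 30.8 and 35.9 CPM in labelled RPN11 knockout livers. The log2 fold change was 0.33 (SE 0.15, adjusted p = 0.211). In the METTL3 line it ranged from 31.3 to 41.6 CPM in flox/flox and from 23.7 to 36.5 CPM in knockout livers (-0.22, SE 0.16, adjusted p = 0.316).

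Counted together, 1 of the 10 genes (Psmb8) was called higher in the RPN11 line, where 1.99% of 12108 tested genes were called higher, and none was called lower (2.82%). At an unadjusted p under 0.05 there were 2 higher and 0 lower, where 12.9% of tested genes were higher and 12.2% lower. DESeq2 called 2 members higher and 0 lower, where it called 584 of 16399 genes higher and 710 lower. The 10 log2 fold changes were all above 0, as were 53.4% of all tested genes, with a median of 0.26 against 0.03 over all tested genes. In the METTL3 line 2 of 10 (Psme2 and B2m) were called lower, close to the 15.3% of 12450 tested genes called lower. None was called higher (15.2%). The counts were the same at an unadjusted p under 0.05 (22.0% of tested genes higher, 20.8% lower). They were also the same by DESeq2, which called 2296 of 16508 genes higher and 2036 lower. In edgeR's fit of this line 8 of 10 lay below 0, with a median of -0.27 against 0.04 over all tested genes. Over plain library totals the METTL3 median was 0.16 against 0.46, so their median lay below that of all tested genes under both scalings and changed sign between them. Groups did not overlap for 2 of 10 in each line, Psmb8 and B2m above in the RPN11 line and Psme2 and B2m below in the METTL3 line. Of all genes at 1 CPM or more, 8.17% lay wholly above and 10.5% wholly below in the RPN11 line, and 15.9% and 17.1% in the METTL3 line. All 10 members passed the filter on low counts in every comparison.

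**Figure D3:**
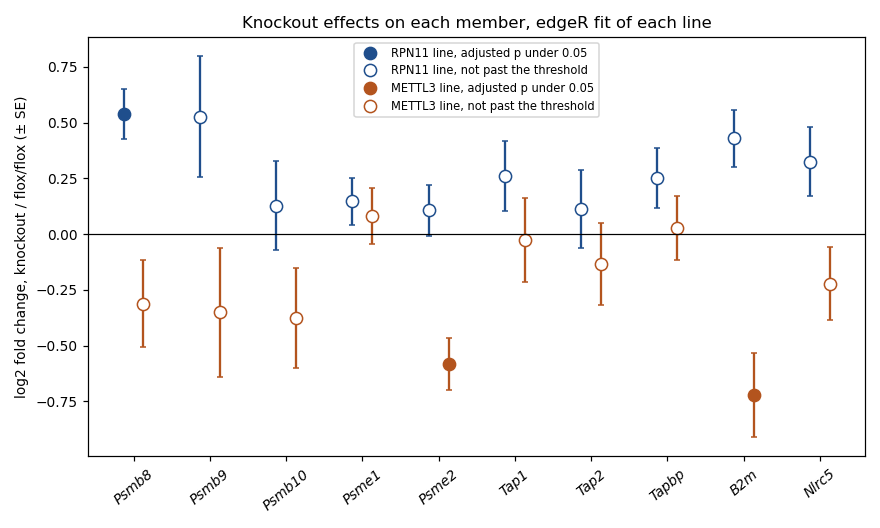
Log2 fold change of each member, knockout against flox/flox, in the RPN11 and METTL3 lines, with bars of 1 SE from edgeR fits of 8 livers each and filled points past the threshold. The RPN11 values are all above 0 and 8 of the 10 METTL3 values are below 0 under TMM scaling, while over plain library totals Psmb8, Psmb9, Psmb10, Tap1, Tap2 and Nlrc5 in the METTL3 line turn positive.

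The knockout effects of the lines differed for 3 members. In a fit of all 16 livers, the RPN11 effect minus the METTL3 effect was 1.13 for B2m (SE 0.23, adjusted p = 0.00456), 0.84 for Psmb8 (SE 0.23, adjusted p = 0.0214) and 0.67 for Psme2 (SE 0.15, adjusted p = 0.00913) on the log2 scale. That is 3 of 10 called higher, where 6.96% of 13118 tested genes were, and none called lower (6.15%). DESeq2 gave the same counts, where it called 1268 of 16973 genes higher and 1052 lower. For Psmb9 the difference was 0.86 with a wider error (SE 0.40, adjusted p = 0.168) and for Nlrc5 it was 0.53 (SE 0.23, adjusted p = 0.137). The other 5 differences lay between 0.05 (Psme1) and 0.49 (Psmb10) and did not pass. The same 3 genes were called when knockout liver 4 of both lines was left out. Over plain totals the B2m difference held, at 0.90 (adjusted p = 0.00308), while Psmb8 (0.56, adjusted p = 0.167) and Psme2 (0.42, adjusted p = 0.16) no longer passed and Psme1, Tap1, Tap2 and Tapbp turned negative. This contrast uses the same livers as the fits above and adds no independent evidence of either direction.

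The flox/flox livers of the lines, which carry no knockout, were compared to show how far the controls differ. None of the 10 genes was called by edgeR, where 0.319% of 11905 tested genes were, and DESeq2 called none of them either. At an unadjusted p under 0.05, which 16.5% of tested genes had, there were Psme2 and Tap2. Psme2 was lower in all 4 RPN11 flox/flox livers than in any METTL3 flox/flox liver, with log2 -0.30 (adjusted p = 0.185), and Tap2 was at -0.41 (adjusted p = 0.232). Of genes at 1 CPM or more, 4.26% were wholly lower and 5.39% wholly higher in RPN11 flox/flox livers.

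The rest of the pathway was counted in lists. Over all tested genes, edgeR called 15.2% higher and 15.3% lower in the METTL3 line, and 1.99% and 2.82% in the RPN11 line. The other 20S core subunits, which both kinds of proteasome share, were called lower for 9 of 11 in METTL3 knockout livers, with a median log2 fold change of -0.57. Among them were Psmb1 at -0.71 (adjusted p = 0.00181), Psmb4 at -0.77 (adjusted p = 0.00201), Psmb2 at -0.65 (adjusted p = 0.00217) and Psmb3 at -0.83 (adjusted p = 0.00673). Over plain totals 2 of the 11 were called lower, where 789 of 12450 tested genes were. The median was then -0.18 against 0.46 for all tested genes. In the RPN11 line edgeR called none of the 11, with 9 above 0 and a median of 0.19. At an unadjusted p under 0.05 there were 2 higher (12.9% of all tested genes), and DESeq2 called 1 higher (584 of 16399 genes). Of 11 constitutive counterparts, regulators and assembly factors, 5 were called lower in METTL3 knockout livers. They included Pomp, the proteasome maturation protein (-0.65, adjusted p = 0.0054). The count was 2 over plain totals (789 of 12450 tested genes lower) and 3 without knockout liver 4. Without that liver, calls over all genes in either direction also fell, to 3058 from 3799.

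Class I molecules beyond the classical ones also held calls. In METTL3 knockout livers 5 of 13 tested were called lower and none higher, where 15.3% and 15.2% of all tested genes were. They included H2-Q10, a secreted class I molecule made by the liver (-0.98, adjusted p = 0.00546), H2-T23, which encodes Qa-1 (-0.67, adjusted p = 0.00775), Fcgrt, the neonatal Fc receptor (-0.82, adjusted p = 0.00341), and Cd1d1, which presents lipids (-0.92, adjusted p = 0.0242, lost in 5 of 15 alternatives). Over plain totals 3 were called lower and 3 higher, where 789 and 4077 of 12450 tested genes were. In labelled RPN11 knockout livers edgeR called 1 of 14, Fcgrt, which was lower, where 2.82% of all tested genes were. Its log2 fold change was -0.61 (SE 0.12, adjusted p = 0.0182), and the call was lost in 4 of 16 alternatives (adjusted p up to 0.0887). DESeq2 called 1 higher and 3 lower of 15 there, where it called 584 of 16399 genes higher and 710 lower. H2 genes are near copies of one another, and how the authors' counting split shared reads among them was not tested.

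Of 15 genes for loading and trimming peptides, 2 were called higher and 1 lower in METTL3 knockout livers. These counts are no more than the shares of all tested genes, 15.2% higher and 15.3% lower. Those higher were Sec61a1 of the translocon (0.69, adjusted p = 0.0138) and the chaperone Hspa5 (0.83, adjusted p = 0.0354, lost in 5 of 15 alternatives with adjusted p up to 0.111). Lap3, an aminopeptidase, was called lower (-0.61, adjusted p = 0.0431), a call lost in 9 of 15 alternatives (adjusted p up to 0.194). Neither edgeR nor DESeq2 called any of the 15 in the RPN11 line, where 3 were higher and 1 lower at an unadjusted p under 0.05 (12.9% and 12.2% of all tested genes).

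Among 16 tested regulators, 1 was called higher and none lower in labelled RPN11 knockout livers, where 1.99% and 2.82% of all tested genes were. Irf9, the DNA-binding subunit of the interferon-activated factor ISGF3, rose (log2 fold change 0.49, SE 0.12, adjusted p = 0.0409), a call lost in 9 of 16 alternatives. Irf1 was at -0.50 (adjusted p = 0.0919) in the same livers. In METTL3 knockout livers 4 were called higher and 1 lower, where 15.2% and 15.3% of all tested genes were. Those higher were both chains of the interferon gamma receptor, Ifngr1 (1.08, adjusted p = 0.0019) and Ifngr2 (1.05, adjusted p = 0.00338), with Nfkb1 (0.70, adjusted p = 0.0082) and the class II transactivator Ciita (1.74, adjusted p = 0.0383). The Ciita call was lost in 8 of 14 alternatives, with adjusted p up to 0.0964. Stat2 was called lower (-0.41, adjusted p = 0.0384), while Irf1 (0.13, adjusted p = 0.511) did not pass.

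Part of the class II presentation genes rose in METTL3 knockout livers. Of 8 tested, 4 were called higher and none lower, where 15.2% and 15.3% of all tested genes were. Those higher were the invariant chain Cd74 (1.14, adjusted p = 0.000647), H2-Ab1 (1.10, adjusted p = 0.00559), H2-Aa (1.07, adjusted p = 0.00825) and the protease Ctss (2.79, adjusted p = 0.0305). Ctss rested largely on 1 liver, at 603 CPM where the knockout mean was 225 ± 252 CPM (SD, n = 4), and its call was lost in 5 of 15 alternatives, DESeq2 among them, with log2 fold changes from 1.60 to 3.35. In the same comparison all 13 tested macrophage markers were called higher, 4 of 9 hepatocyte markers were called lower and 6 of 7 stellate cell markers were called higher, and their part in these counts was not tested. In the RPN11 line edgeR called none of 8 class II genes, with 7 above 0. At an unadjusted p under 0.05, 2 were higher (12.9% of all tested genes), and DESeq2 called 1 higher (584 of 16399 genes). There 1 of 13 macrophage markers was called higher by edgeR, where 1.99% of all tested genes were.

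**Figure D4:**
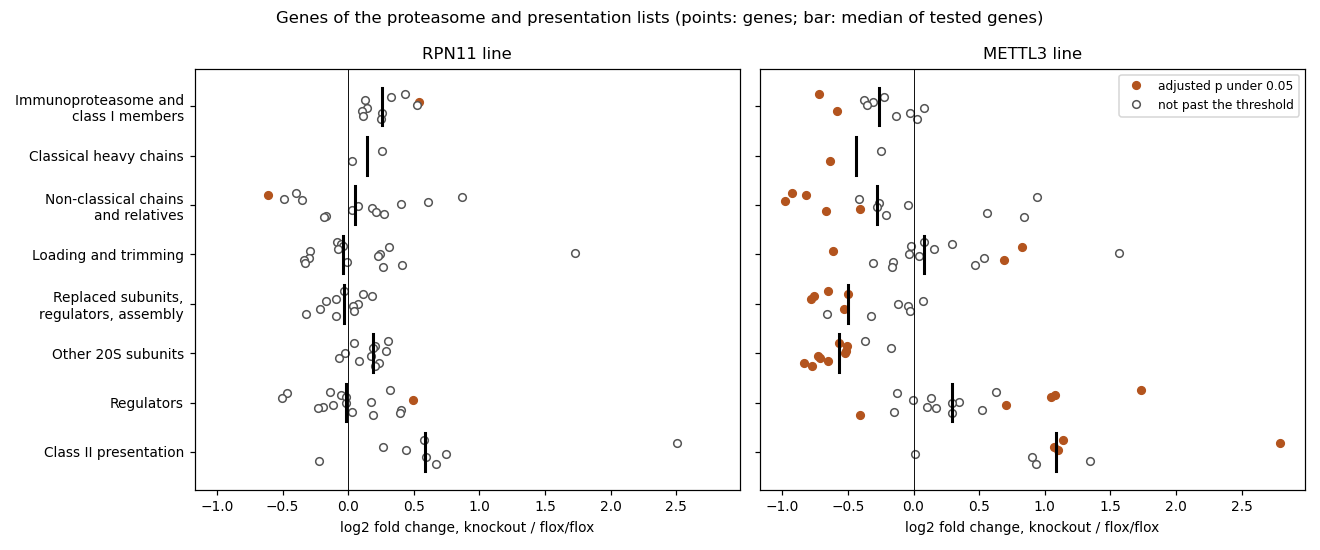
Log2 fold change of every tested gene of each pathway list, knockout against flox/flox, with the list median and filled points past the threshold, in the RPN11 line (left) and the METTL3 line (right). In the METTL3 line the other 20S subunits lie below 0 and the class II genes above 0 under TMM scaling, and over plain library totals the bulk of all genes shifts upward by 0.42.

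Within groups, correlations among the members ranged widely. Over the 45 pairs of members, Pearson's r of log2 deviations from the group means across 16 livers ran from -0.57 (Tap1 with B2m) to 0.77 (Psmb10 with Tapbp), with a median of 0.27. Psme1 with B2m had an r of 0.70 and Psmb8 with Psmb9 had -0.15. These livers share libraries, depth and scaling between genes, so the values are a description. The gene outside the lists whose deviations were most like the members' mean was Exosc8, a subunit of the RNA exosome, with an r of 0.90 over 16 livers and 0.90 without knockout liver 4 of both lines. Trmt1, a tRNA methyltransferase (0.81 and 0.87), Lamtor2 (0.81 and 0.80), Ccdc9 (0.81 and 0.79) and Tmem129 (0.80 and 0.78) followed, out of 11040 genes. Without those livers Exosc8 and Trmt1 ranked 1 and 3, while Lamtor2, Ccdc9 and Tmem129 fell to ranks 18, 21 and 30.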

How the data were processed

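Per the submitters' processing notes, the authors used cutadapt 1.9.3, HISAT2 2.0.4, the mm10 build and HTSeq 0.9.1 to obtain counts per gene. Per the labels' protocols, RNA was taken up in TRIzol, depleted of ribosomal RNA and made into libraries with a low-input kit. The deposited raw counts of 16 livers were used here, and the 16 deposited columns of normalized values were not. Counts were tested with edgeR 4.0.16 in R 4.3.3 (filterByExpr, TMM factors, robust quasi-likelihood fit), each line alone, with an interaction contrast over 16 livers and a comparison of the flox/flox groups. CPM levels use 1 TMM scaling of all 16 livers. CPM per kb uses the exonic length of a gene in GENCODE M21, merged over its transcripts. Catalytic subunit ratios add 0.5 to each count and had exact two-sided permutation tests (Python 3.11.15, numpy 2.4.6).

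The members and lists were chosen with earlier results of these data known. All members, the targeted genes, H2-K1, H2-D1, Psmb5 to Psmb7 and Irf1 are always named, with up to 4 called genes of each other list and line by lowest p, and the 5 genes with the most similar deviations on log2(CPM + 0.5) among those of at least 1 CPM. Stat2 was chosen after its values were seen, and 1 gene that the rule would name is not reported here. The H2-L gene of the classical list and some others were not analysed here. Alternatives were DESeq2 1.42.0, RLE factors, no filter, genes averaging at least 5 CPM, a replicate block, all livers in 1 fit and each liver left out. Plain library totals and labelled RPN11 knockouts 1 and 3 summed as 1 library were added after the data were seen. The fits were tested on simulated data. Standard errors hold counting error and spread between livers.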

Additional observations from a re-analysis of the deposited data

Results flagged for a closer look

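Of 80 gene and group combinations examined, 4 had 1 liver far from the other 3 by Dixon's criterion, where chance gives about 1 in 20. Psme2 in METTL3 flox/flox livers reached 60.3 CPM in liver 2, with the others at 51.0 to 52.0 CPM. Tapbp in RPN11 flox/flox livers reached 70.4 CPM in liver 4, with the others at 54.8 to 56.9 CPM. B2m in livers labelled RPN11 knockout reached 2790 CPM in liver 2, with the others at 2244 to 2299 CPM. H2-K1 in METTL3 knockout livers was at 569 CPM in liver 4, with the others at 681 to 700 CPM.

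Knockout effects that differed between the lines, as the RPN11 effect minus the METTL3 effect on the log2 scale in edgeR's fit of all 16 livers, were 0.84 for Psmb8, 0.67 for Psme2 and 1.13 for B2m among the members. Among the other proteasome genes they were 0.92 for Psmb6, 0.67 for Psmb7, 0.60 for Pomp, 0.63 for Psmb1, 0.72 for Psmb2, 1.05 for Psmb3 and 0.96 for Psmb4. Among class I and loading genes they were 0.65 for H2-K1, 0.86 for H2-T23 and -1.03 for Sec61a1. Among regulators they were -1.14 for Ifngr1, -1.08 for Ifngr2 and -0.83 for Nfkb1, and for the targeted gene Mettl3 the difference was 1.60. The difference lost its call in 16 of 24 alternatives for H2-K1, in 17 for Psmb7 and in 14 for Pomp.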

How the results depend on the processing

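The members called higher in the RPN11 line numbered 1, and 0 with no filter, under the replicate block or in 1 fit of all 16 livers, but 2 with a mean of at least 5 CPM, DESeq2 or plain library totals, and 0 to 2 with 1 liver left out. Over all genes that line had 583 calls, against 350 with no filter, 817 with a mean of at least 5 CPM and 1294 with DESeq2. It had 376 under the block, 343 in 1 fit of all livers and 884 over plain totals (59 to 941 with 1 liver left out). Correlations of the deviations of same-numbered livers ran from -0.05 to -0.01 in the RPN11 line and from 0.05 to 0.21 in the METTL3 line, where livers 1, 3 and 4 correlated best with their own number and liver 2 did not, so the numbers were not taken to pair the livers.

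In the METTL3 line plain totals gave 1 member higher (Psme1) and 0 lower, against 0 and 2. Of 12450 tested genes, plain totals called 4077 higher and 789 lower. Leaving out 1 liver gave 1 to 2 lower, and 2737 to 4932 calls over all genes against 3799. The share of calls that were higher went from 49.8% to 83.8% over plain totals, and in the RPN11 line from 41.3% to 74.9% with a median shift of 0.15. For the difference between the effects, plain totals gave 1 member called higher against 3, where 546 of 13118 tested genes were against 913. The higher share of calls fell to 27.5% from 53.1%, and leaving out 1 liver gave 2 to 3 members and 1095 to 2663 calls against 1720. The flox/flox groups had 38 calls, against 66 with RLE factors, 144 with no filter, 83 with a mean of at least 5 CPM, 417 with DESeq2, 7 under the block and 1 in 1 fit of all livers (1 to 282 with 1 liver left out), and no member was called in any of these left-out fits. Irf9 in METTL3 knockout livers was at 0.41 over plain totals (adjusted p = 0.0357), against an adjusted p of 0.989 with TMM and the opposite sign.

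The B2m difference kept its call in all 24 alternatives. For the subunit ratios the smallest possible exact p was 0.0286, and it was above the threshold in pairs, so that little could pass and their alternatives say nothing of stability. With 4 livers a group, folds near those of Psmb8 pass or miss with the choice of liver, and Psmb9, at 80 to 270 counts a liver, had the widest errors. The causes of these changes were not tested.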
